A study of Mus musculus with 12 samples.

Results

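Developmental and slow sarcomere genes were followed as a set of 10 in dorsal skin wounds of diabetic mice, out of 54232 genes in the count files. The set held 3 genes of developing muscle (Myh8, Myh3 and Myl4) and 7 genes typical of slow fibers (Myh7, Tnni1, Tnnc1, Tnnt1, Myl3, Myl2 and Casq2). They were selected by name, and each was found by matching its Ensembl identifier to a gene symbol. The list was drawn up with earlier results of these libraries known, among them the values of Myh8 under the strain patch and the no-strain patch. The levels below are therefore a description, the comparison of those patches carries no test for these genes, and the calls against the dressing support nothing beyond themselves.

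All 12 wounds came from male C57BLKS/J mice with the genotype Lepr (db/db), a leptin receptor mutation that gives obesity and diabetes. The mice were 12 weeks old at wounding, and the sample labels give 12.5 weeks. A punch of 6 mm through the full skin was taken from the back, and the wound tissue was collected on day 10. TD wounds (5 libraries) had a Tegaderm film alone. Strain wounds (4 libraries) had a patch with a strain of roughly 30%, and No Strain wounds (3 libraries) the patch without strain. Shared mice between wounds are not stated, so the p-values measure the spread between these wounds. The TD titles carry lower numbers than the titles of both patch groups, so whatever those numbers stand for and the effect of a patch cannot be told apart.

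The sarcomere is the contractile unit of striated muscle, in which myosin filaments pull on actin filaments under the control of the troponin complex. Most of its parts exist as several isoforms from separate genes, used in developing, slow and fast fibers. Embryonic and neonatal myosin heavy chains are made by forming and regenerating fibers and are largely replaced as a fiber matures. Young fibers of either later type also make slow troponin isoforms. Mouse back skin lies on a thin sheet of mainly fast muscle, the panniculus carnosus, so a punch through the skin can include it. In bulk tissue, fewer cells of a type and less RNA per cell cannot be told apart.

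Total counts per library ran from 20354677 to 25059371, and 3 counts were worth at most 0.147 counts per 1000000 library counts (CPM). The 10 genes took from 0.0111% to 0.0795% of a library's counts, against 0.318% to 1.75% for a list of 15 mature fast muscle genes. No Strain replicate 3 had the highest level of all 12 libraries for 10 of the 10 genes. TD replicate 5 had the lowest level among the TD libraries for 10 of 10. For No Strain against TD, the value of each of the 10 genes is given with and without No Strain replicate 3. Markers of skin were present: summed over 6 keratinocyte genes the libraries held 7429 to 20905 CPM, and over 6 fibroblast genes 41920 to 72977 CPM.

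Myh3 and Myh8 stand in a row of myosin heavy chain genes on mouse chromosome 11, in the GENCODE M21 annotation of GRCm38. Myh3 begins the row, and Myh13 (67321658 to 67371586) lies beyond Myh8 on the same strand. Myh3 spans 67078300 to 67102291, Myh8 spans 67277124 to 67308634, and the fast genes Myh2, Myh1 and Myh4 lie between them on the same strand. Myh7 spans 54970684 to 54994626 on the reverse strand of chromosome 14, next to the cardiac gene Myh6. The remaining genes lie singly: Tnni1 on chromosome 1, Casq2 on 3, Myl2 on 5, Tnnt1 on 7, Myl3 on 9, Myl4 on 11 and Tnnc1 on 14.

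Promoter windows of 300 bases around the start of transcription (RefSeq, GRCm38.p6) are shown for both developmental myosin genes, for 2 slow troponin genes, and for Myh7, the gene with the widest range between libraries. Capitals mark matches on either strand to the E-box CANNTG (bound by myogenic factors), to the MCAT element CATTCC (bound by TEAD factors), and to the MEF2 and CArG consensus motifs. Each sequence is written 5′ to 3′ in the direction of its gene.
Myh8, chr11:67276874-67277173, forward strand: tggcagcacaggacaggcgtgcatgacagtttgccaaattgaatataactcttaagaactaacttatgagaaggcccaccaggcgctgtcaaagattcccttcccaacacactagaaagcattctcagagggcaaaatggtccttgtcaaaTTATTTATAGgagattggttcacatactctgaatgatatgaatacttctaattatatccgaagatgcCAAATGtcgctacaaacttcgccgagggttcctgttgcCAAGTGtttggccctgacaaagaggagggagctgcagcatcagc
Myh3, chr11:67078050-67078349, forward strand: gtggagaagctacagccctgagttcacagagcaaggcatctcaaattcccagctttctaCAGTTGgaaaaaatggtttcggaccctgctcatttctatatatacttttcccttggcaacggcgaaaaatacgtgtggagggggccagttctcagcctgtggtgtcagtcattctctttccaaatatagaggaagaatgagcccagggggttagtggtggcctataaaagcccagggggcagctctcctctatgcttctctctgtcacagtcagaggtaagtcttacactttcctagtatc
Tnnc1, chr14:31208062-31208361, forward strand: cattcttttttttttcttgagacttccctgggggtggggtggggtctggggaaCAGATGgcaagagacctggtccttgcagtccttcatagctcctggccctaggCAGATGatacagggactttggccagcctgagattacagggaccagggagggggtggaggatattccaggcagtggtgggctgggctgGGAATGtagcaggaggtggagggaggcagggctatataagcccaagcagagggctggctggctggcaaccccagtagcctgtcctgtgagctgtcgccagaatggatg
Tnnt1, chr7:4515926-4516225, reverse strand: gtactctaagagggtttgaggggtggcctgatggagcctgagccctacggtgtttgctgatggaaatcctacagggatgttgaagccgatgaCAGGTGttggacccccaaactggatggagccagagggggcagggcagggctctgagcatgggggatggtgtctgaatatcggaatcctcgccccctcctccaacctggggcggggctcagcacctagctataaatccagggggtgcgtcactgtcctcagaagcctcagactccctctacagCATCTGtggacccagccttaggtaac
Myh7, chr14:54994577-54994876, reverse strand: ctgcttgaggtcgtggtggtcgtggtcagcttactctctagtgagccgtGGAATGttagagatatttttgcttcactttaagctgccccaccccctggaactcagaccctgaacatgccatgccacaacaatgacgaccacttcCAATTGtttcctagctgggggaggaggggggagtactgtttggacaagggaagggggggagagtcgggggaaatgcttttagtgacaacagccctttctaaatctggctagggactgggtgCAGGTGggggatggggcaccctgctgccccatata

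The Myh8 window held a MEF2 match 99 bases before the start and 2 E-boxes. That of Myh3 held 1 E-box, and that of Tnnc1 held 2 E-boxes and an MCAT element 58 bases before the start. Tnnt1 had 2 E-boxes, and Myh7 had 2 E-boxes and an MCAT element 201 bases before the start. Windows beginning at an annotated start, or within 32 bases of one, were found for 9 of the 10 genes. Of these 9, an E-box was present in 8, an MCAT element in 3, a MEF2 match in 2 and a CArG match in 1. Among 32851 mouse promoter windows of this length the shares were 72.3%, 14.7%, 3.19% and 1.63% in the same order. These are matches of letters only.

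Myh8 encodes the neonatal myosin heavy chain. Its TD libraries had 122, 149, 114, 138 and 73.7 CPM, the Strain libraries 39.1, 42.5, 47.9 and 32.8 CPM, and the No Strain libraries 130.2, 84.4 and 153 CPM. Every Strain library lay below every library of the other groups, and TD and No Strain overlapped. The means were 119 ± 29.0 CPM in TD (SD, n = 5), 40.6 ± 6.31 CPM under strain (SD, n = 4) and 122 ± 34.8 CPM without strain (SD, n = 3). Myh8 was 2.94-fold lower under strain than in TD (log2 fold change -1.56, SE 0.222, edgeR adjusted p = 0.00462). With the level of the mature fast muscle list as a covariate, only 1 of all 18618 genes was called for Strain against TD. The Myh8 call was lost there, at -0.63 (edgeR adjusted p = 0.495). In No Strain against TD its log2 fold change was 0.04 (SE 0.230, edgeR adjusted p = 0.935), and -0.16 without No Strain replicate 3. Strain against No Strain gave -1.59 (SE 0.242), and -1.40 without No Strain replicate 3.

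Myh3 encodes the embryonic myosin heavy chain, the first to appear in a new fiber. The TD libraries had 41.4, 50.0, 73.2, 58.4 and 21.5 CPM, the Strain libraries 36.7, 18.8, 66.5 and 31.7 CPM, and the No Strain libraries 113.8, 67.6 and 190.1 CPM. Unlike Myh8, Myh3 overlapped between Strain and TD, while Strain and No Strain were apart by the narrow gap between 66.5 and 67.6 CPM. Its log2 fold change was -0.35 for Strain against TD (SE 0.420, edgeR adjusted p = 0.626). No Strain against TD gave 1.34 (SE 0.441, edgeR adjusted p = 0.0568), which did not pass the threshold of 0.05. Without No Strain replicate 3 that value was 0.89 (edgeR adjusted p = 0.255). Strain against No Strain gave -1.69 (SE 0.473), or -1.24 without that library.

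Myl4 encodes the light chain of embryonic muscle and of the heart atrium. Its TD libraries had 51.1, 51.4, 47.3, 51.2 and 35.4 CPM, the Strain libraries 16.2, 20.1, 48.5 and 29.1 CPM, and the No Strain libraries 49.0, 55.7 and 60.2 CPM. Strain replicate 3 lay within the TD range, at 48.5 CPM, and the other 3 Strain libraries lay below it. The log2 fold change was -0.73 for Strain against TD (SE 0.266, edgeR adjusted p = 0.0934). Without Strain replicate 3 it was -1.13 and passed (edgeR adjusted p = 0.00814). For No Strain against TD it was 0.22 (SE 0.282, edgeR adjusted p = 0.632), or 0.15 without No Strain replicate 3, and for Strain against No Strain -0.95 (SE 0.297).

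**Figure D1:**
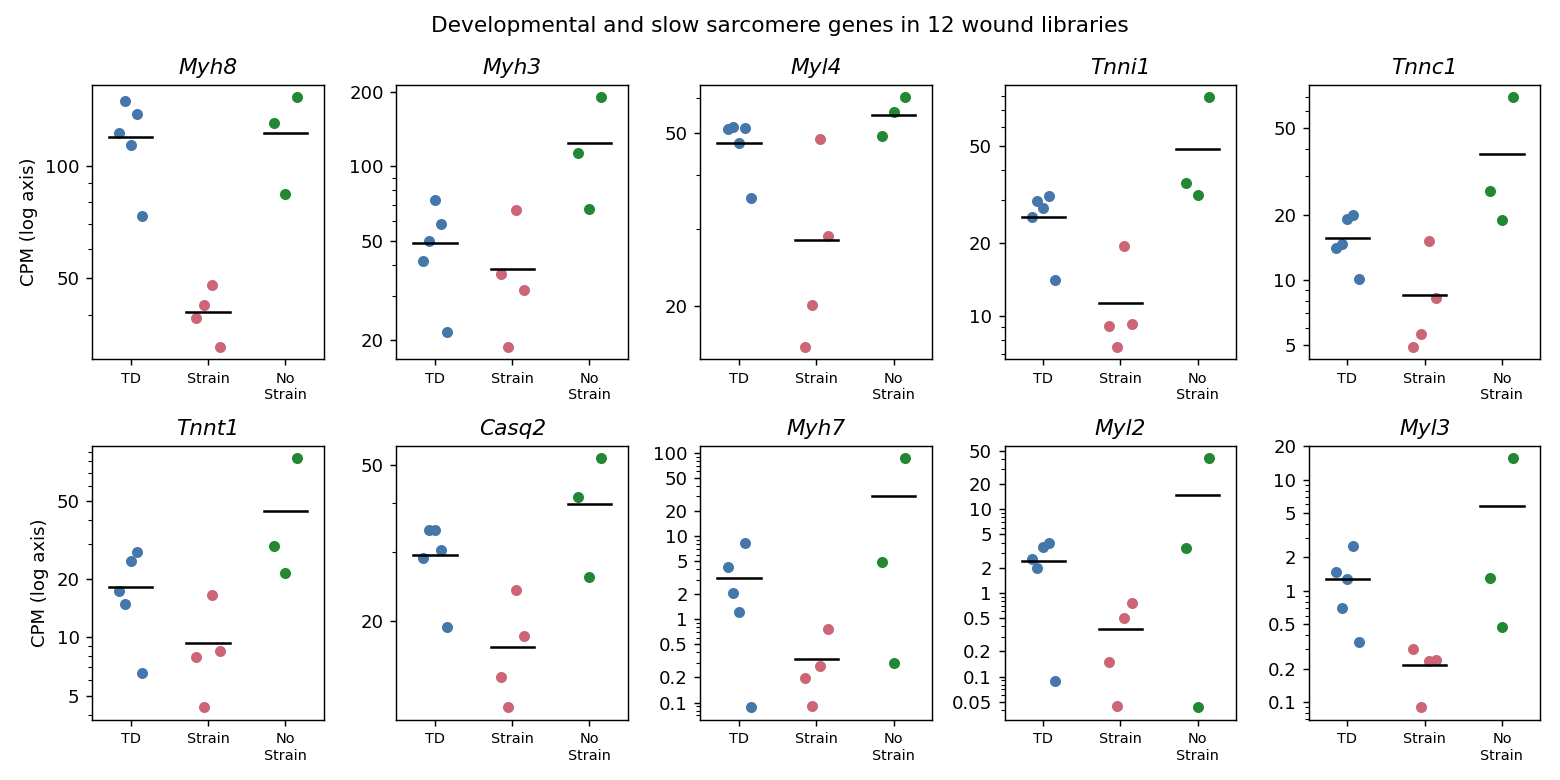
Level of each of the 10 genes in CPM on a log axis, in 5 TD, 4 Strain and 3 No Strain libraries, with 1 point for each library and a bar at the group mean. Strain libraries lay below No Strain libraries without overlap for 8 genes, beside 2.77% of all genes, while Myh7 and Myl2 overlapped. A value of this comparison was known when the list was made, so nothing is read from that count.

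The slow troponins came next, as regulators of the thin filament. Tnni1 encodes slow troponin I, the inhibitory subunit. It had 25.5, 29.8, 27.8, 31.1 and 14.1 CPM in the TD libraries, 9.13, 7.51, 19.4 and 9.34 CPM in the Strain libraries, and 35.2, 31.5 and 79.1 CPM in the No Strain libraries. All No Strain libraries lay above all TD libraries, the lowest at 31.5 against the highest TD library at 31.1. The log2 fold change was -1.17 for Strain against TD (SE 0.363, edgeR adjusted p = 0.0556) and 0.92 for No Strain against TD (SE 0.371, edgeR adjusted p = 0.108), and neither passed. Without No Strain replicate 3 the latter was 0.38 (edgeR adjusted p = 0.542). The Strain value passed when TD replicate 5, Strain replicate 3 or No Strain replicate 3 was left out, at edgeR adjusted p = 0.0393, 0.0189 and 0.0332. Strain against No Strain gave -2.09 (SE 0.402), or -1.55 without No Strain replicate 3.

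Tnnc1 encodes the calcium-binding troponin C of slow and heart muscle. The TD libraries had 14.0, 14.6, 19.0, 20.0 and 10.0 CPM, the Strain libraries 4.91, 5.62, 15.1 and 8.24 CPM, and the No Strain libraries 25.6, 18.8 and 69.5 CPM. Strain replicate 3 again lay inside the TD range. Tnnt1, which encodes the slow subunit that anchors the complex to tropomyosin, had 17.3, 14.8, 24.6, 27.6 and 6.57 CPM in TD. It had 7.89, 4.36, 16.5 and 8.47 CPM in the Strain libraries and 29.4, 21.3 and 83.2 CPM in the No Strain libraries. For both genes Strain and No Strain did not overlap, and No Strain replicate 3 stood far above the other 2 No Strain libraries. Against TD the log2 fold changes under strain were -0.87 for Tnnc1 (SE 0.428, edgeR adjusted p = 0.201) and -0.96 for Tnnt1 (SE 0.516, edgeR adjusted p = 0.240). Without strain they were 1.29 for Tnnc1 (SE 0.438, edgeR adjusted p = 0.0628) and 1.30 for Tnnt1 (SE 0.527, edgeR adjusted p = 0.111). With No Strain replicate 3 left out, the same values were 0.52 for Tnnc1 and 0.48 for Tnnt1. Strain against No Strain gave -2.16 for Tnnc1 and -2.26 for Tnnt1, and -1.39 and -1.44 without that library.

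Casq2 encodes calsequestrin of slow fibers and heart, which stores calcium in the sarcoplasmic reticulum. It had 29.0, 34.2, 34.2, 30.3 and 19.3 CPM in TD, 14.4, 12.0, 23.9 and 18.3 CPM under strain, and 41.4, 25.9 and 52.1 CPM without strain. Only Strain replicate 3 reached above the lowest TD library. The log2 fold change was -0.78 for Strain against TD (SE 0.250, edgeR adjusted p = 0.0632), 0.44 for No Strain against TD (SE 0.263, edgeR adjusted p = 0.274) and -1.21 for Strain against No Strain (SE 0.278). The last 2 values were 0.19 and -0.97 without No Strain replicate 3. The first passed without Strain replicate 3 (-0.99, edgeR adjusted p = 0.0299), without TD replicate 5 (-0.90, edgeR adjusted p = 0.0406) and without No Strain replicate 2 (-0.78, edgeR adjusted p = 0.0476).

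Myh7, Myl2 and Myl3 encode a heavy chain and both light chains of myosin in slow fibers and heart, and are described together as a trio. Myh7 had 104, 50, 31, 202 and 2 counts in TD, 4, 2, 7 and 16 counts under strain, and 110, 7 and 1860 counts without strain. In CPM its range was 0.0876 to 8.15 in TD, 0.0899 to 0.766 under strain and 0.300 to 86.3 without strain. A single library, No Strain replicate 3, held 86.3 CPM, while the next highest, TD replicate 4, held 8.15 CPM.

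Myl2, the regulatory light chain, had 62, 48, 90, 97 and 2 counts in TD, 3, 1, 13 and 16 counts under strain, and 76, 1 and 879 counts without strain. Myl3, the essential light chain, had 36, 17, 32, 63 and 8 counts in TD, 6, 2, 6 and 5 counts under strain, and 29, 11 and 337 counts without strain. The libraries low in one gene of the trio were low in the others: TD replicate 5 and No Strain replicate 2 lay near the Strain libraries. Several of these counts are at or below 3, the floor used here, so the fold changes are coarse. They were -3.25 for Myh7 (SE 1.59, edgeR adjusted p = 0.198), -2.70 for Myl2 (SE 1.41, edgeR adjusted p = 0.228) and -2.54 for Myl3 (SE 1.12, edgeR adjusted p = 0.154) for Strain against TD on the log2 scale. Myl3 passed with No Strain replicate 3 left out of the fit (edgeR adjusted p = 0.0286), although that library is in neither group.

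For No Strain against TD, the trio's log2 fold changes were 3.26 for Myh7 (SE 1.23, edgeR adjusted p = 0.0875), 2.60 for Myl2 (SE 1.15, edgeR adjusted p = 0.139) and 2.18 for Myl3 (SE 0.866, edgeR adjusted p = 0.104). Without No Strain replicate 3 the signs turned, to -0.28, -0.50 and -0.52. Strain against No Strain gave -6.52 for Myh7, -5.30 for Myl2 and -4.72 for Myl3, and without that library -2.97, -2.21 and -2.02. Myh6, a heavy chain of the heart, had 366 counts in No Strain replicate 3 and at most 29 counts in any other library. Of the 50-base windows of the Myh7 transcript, 22.2% also occur in Myh6, so the counting of these genes could have mixed them. Of 7 heart genes, 6 were tested, and 2 of these rose without strain against TD. They were Myh6 (log2 fold change 3.49, edgeR adjusted p = 0.0463) and Mybpc3, the heart form of myosin-binding protein C (1.24, edgeR adjusted p = 0.0374). The share of all genes called higher was 9.35%. Without No Strain replicate 3 neither passed, with 0.17 for Myh6 (edgeR adjusted p = 0.933) and 0.99 for Mybpc3 (edgeR adjusted p = 0.156). Both were highest in that library, as was Nppb, a natriuretic peptide, at 125 counts. Tnni3, heart troponin I, had 63 counts in it and was highest in No Strain replicate 1 at 91 counts. Myl7 and Ryr2 had 9 and 2 counts in that library, and Nppa, the atrial natriuretic peptide, had 0. Summed, the list held 4.42 to 5.79 CPM in TD, 4.98 to 9.94 CPM under strain and 6.30 to 28.5 CPM without strain, and its part in the level of the trio was not tested.

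**Figure D2:**
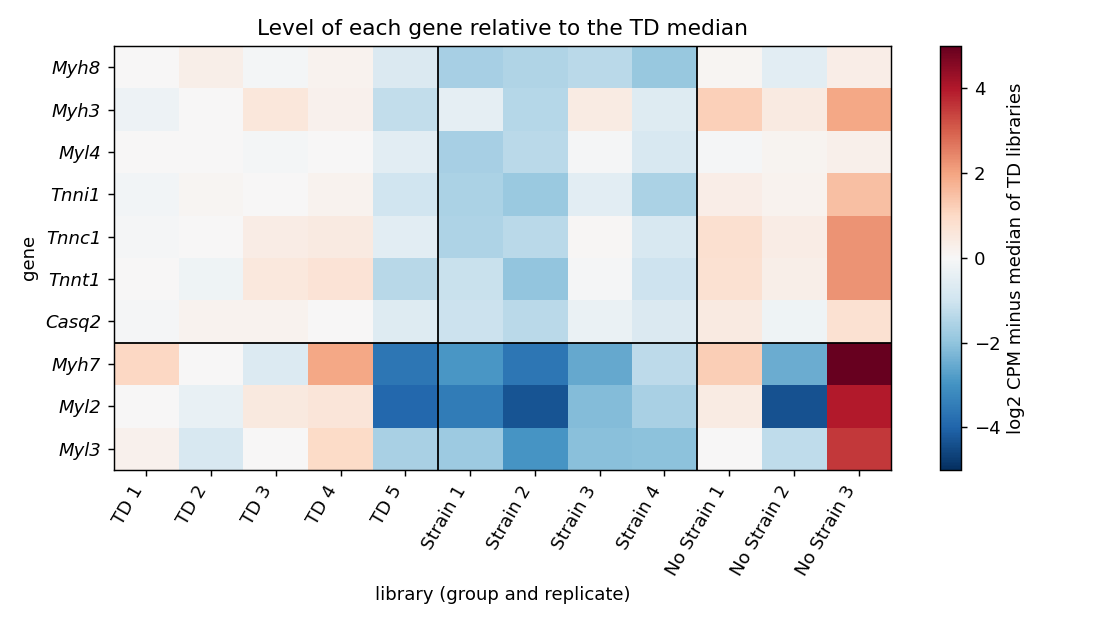
Level of each gene in each library as log2 CPM minus the median of the TD libraries, with red above and blue below that median (color scale from -5 to 5). Myh7, Myl2 and Myl3 in the lower block were high in No Strain replicate 3 and low in TD replicate 5, No Strain replicate 2 and the Strain libraries.

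Against TD, 1 of the 10 genes was called lower under strain (Myh8) and 0 higher at an edgeR adjusted p under 0.05, where 6.41% of all 18618 genes tested were called lower and 6.20% higher. The libraries did not overlap for 2 of the 10, Myh8 and Myl3, both lower under strain, against 7.14% of all genes. At an unadjusted p under 0.05, 5 of the 10 were below TD (Myh8, Tnni1, Myl3, Myl4 and Casq2) and 0 above, and DESeq2 called the same 5, beside 13.8% and 9.69% of all genes. With the fast list as a covariate, 0 of the 10 were called, where that fit called only 1 of all 18618 genes. In No Strain against TD, 0 of the 10 were called higher and 0 lower, beside 9.35% and 8.40% of all genes. At an unadjusted p under 0.05, 7 of the 10 were above TD (Myh3, Myh7, Tnni1, Tnnc1, Tnnt1, Myl3 and Myl2), beside 17.6% of all genes. DESeq2 called Myh3 and Tnnc1 higher, beside 12.1% of all genes. The fit with the fast list as a covariate called 8 of the 10 higher and 0 lower, all except Myh8 and Myl4. It called 563 of all 18618 genes higher and 483 lower. Tnni1 alone had no overlap, lying higher without strain, against 14.3% of all genes. All 10 genes passed the filter on low counts.

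Strain against No Strain placed all 10 fitted values below 0, with a median log2 fold change of -2.13, or -1.42 without No Strain replicate 3. The median over all genes was 0.01. Strain libraries lay below No Strain libraries without overlap for 8 of the 10 genes, beside 2.77% of all genes. Since a value of this comparison was known when the list was made, nothing is read from that count. The fit called 0% of all genes here, with 1045 of 18618 at an unadjusted p under 0.05. The median for Strain against TD was -1.07 and that for No Strain against TD 1.29, beside 0.02 and 0.00 over all genes. Without No Strain replicate 3 the median for No Strain against TD was 0.17, and 4 of the 10 values were below 0. The comparisons share libraries with each other.

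**Figure D3:**
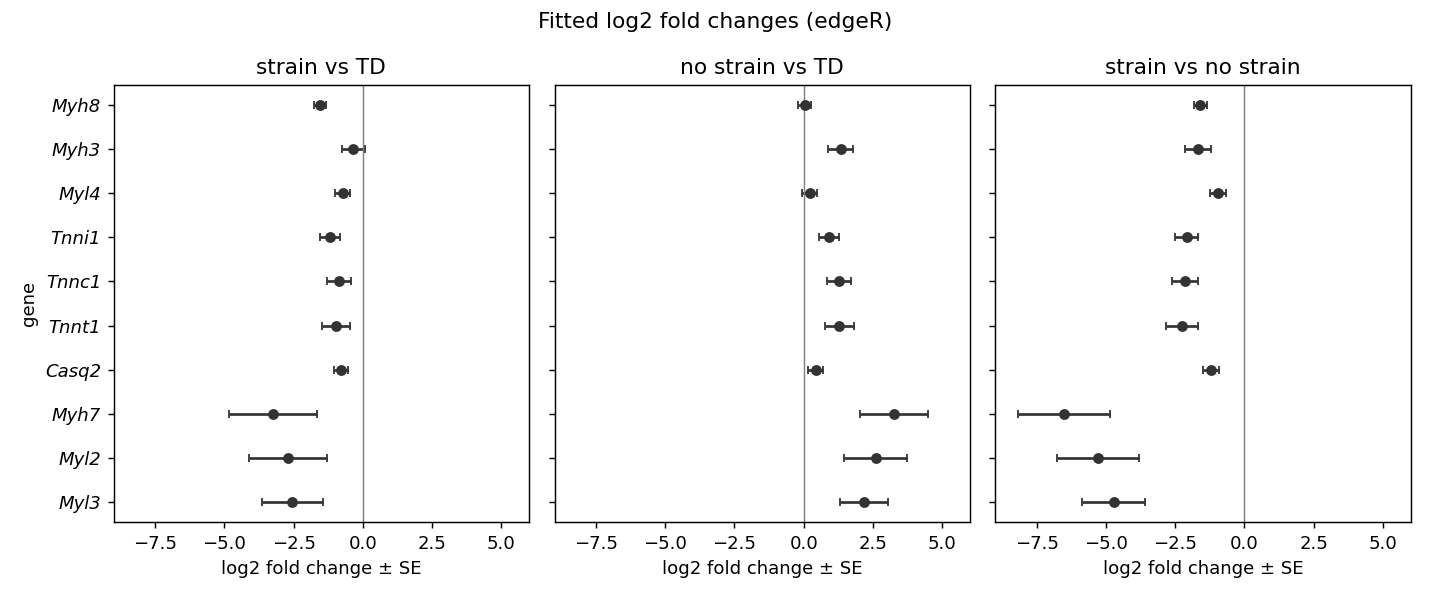
Fitted log2 fold change of each gene with its standard error, for Strain against TD, No Strain against TD and Strain against No Strain. Values lay below 0 for all 10 genes in the first and last comparisons and above 0 for all 10 in the middle one, where 4 of the 10 were below 0 without No Strain replicate 3.

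Levels between genes were compared as CPM per kilobase of annotated exon. Over the 12 libraries Tnnc1 had the highest median at 14.2, followed by Myl4 at 10.5, Casq2 at 10.0, Myh3 at 8.94, Myh8 at 8.43, Tnnt1 at 7.65 and Tnni1 at 7.39 CPM per kilobase. The ranges of these 7 genes overlapped, so their order is not firm. With the longest transcript as the length, the median of Myh8 became 16.1 and that of Tnnt1 15.9. Far below came Myl2 at 0.702, Myl3 at 0.286 and Myh7 at 0.116 CPM per kilobase. The highest library exceeded the lowest by 3.72-fold for Myl4 and 4.65-fold for Myh8, and by 14.2-fold for Tnnc1 and 19.1-fold for Tnnt1.

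The libraries also differed in how much mature muscle RNA they held. Of 14 fast genes tested, 10 fell under strain against TD (median log2 fold change -1.51 for the list) and 3 fell without strain (-0.82), while 0 rose. Summed, the list held 6978 to 16945 CPM in TD, 3216 to 6184 CPM under strain and 4698 to 10236 CPM without strain. Tnni2, the fast counterpart of Tnni1, fell by 1.70 on the log2 scale under strain (SE 0.257, edgeR adjusted p = 0.00539) and by 1.13 without strain (SE 0.279, edgeR adjusted p = 0.0200). The fast myosins Myh1, Myh2 and Myh4 had log2 fold changes of -1.30, -1.36 and -1.28 under strain, with edgeR adjusted p = 0.0646, 0.160 and 0.247. Acta1, skeletal actin, and Ckm, muscle creatine kinase, fell by 1.44 and 1.63 (edgeR adjusted p = 0.0246 and 0.00900). Tnnc2 was at 0 to 12 counts throughout and overlaps exons of Ube2c, so it gives no fast counterpart for Tnnc1.

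Set against that list within each library, the developmental and slow genes took a larger part in the mean under both patches. Their summed CPM per kilobase was 1.33%, 1.62%, 1.16%, 1.59% and 1.36% of the fast list in TD, 2.10%, 1.50%, 2.28% and 1.97% under strain, and 3.42%, 3.67% and 5.10% without strain. No Strain libraries lay above all others, and Strain replicate 2 lay within the TD range. On the log2 scale the means were -6.16 ± 0.202 in TD (SD, n = 5), -5.69 ± 0.263 under strain (SD, n = 4) and -4.64 ± 0.308 without strain (SD, n = 3). For Myh8, Myh3 and Myl4 alone they were -7.48 ± 0.237 (SD, n = 5), -6.93 ± 0.236 (SD, n = 4) and -6.24 ± 0.131 (SD, n = 3). The difference between No Strain and TD was 1.51 and ran from 1.34 to 1.63 as each library was left out. These ratios carry no test, because the list was chosen with results known.

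**Figure D4:**
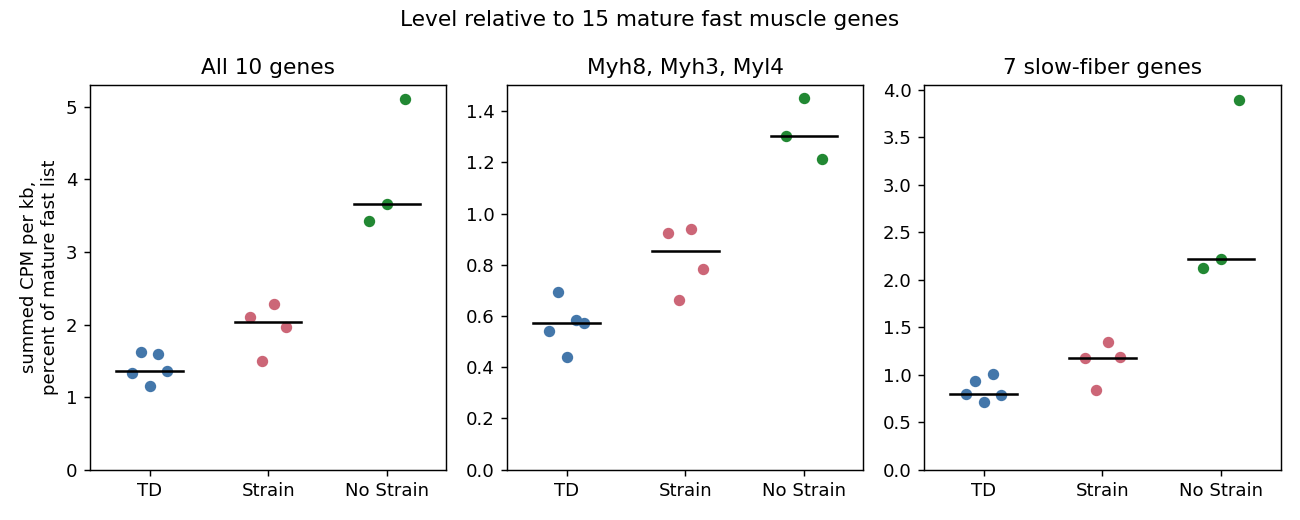
Summed CPM per kilobase of all 10 genes, of the 3 developmental genes and of the 7 slow-fiber genes, as a percent of the same sum over 15 mature fast muscle genes, with 1 point for each library and a bar at the group median. For all 10 genes the medians were 1.36% in TD, 2.03% under strain and 3.67% without strain.

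Of single pairs, those of Tnni1, Tnnt1, Casq2 and Myh3 with a fast counterpart had means in the same order. Tnni1 over Tnni2 was -5.22 ± 0.353 on the log2 scale in TD (SD, n = 5), -4.77 ± 0.436 under strain (SD, n = 4) and -3.25 ± 0.422 without strain (SD, n = 3). Tnnt1 over its fast counterpart Tnnt3 was -6.26 ± 0.401, -5.64 ± 0.610 and -4.17 ± 0.582 in that order. Casq2 over the fast-fiber gene Casq1 was -2.84 ± 0.164, -2.03 ± 0.444 and -1.67 ± 0.0791. Myh3 over Myh4 was far more spread, at -3.90 ± 1.42, -2.91 ± 1.705 and -1.02 ± 1.66. Its Strain libraries ran from -5.35 to -1.73, against -5.41 to -2.02 in TD. Myh8 over Myh4 did not keep this order, with -3.51 ± 1.13 in TD, -3.66 ± 1.08 under strain and -1.91 ± 1.39 without strain, nor did the pairs of the trio. Myl3 over Myl1 had its lowest mean under strain, -9.40 ± 0.520, beside -8.46 ± 0.693 in TD.

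Related gene lists gave the surroundings of these values. In a list of 13 other genes chosen as slow-fiber genes, 2 fell under strain against TD and 0 rose. They were Mb, myoglobin, by 1.54 on the log2 scale, and Myh14, a nonmuscle myosin gene rather than a slow-fiber one. Without strain 1 rose and 0 fell (Tpm3, slow tropomyosin, by 0.45). Tpm3 did not pass without No Strain replicate 3 (0.30, edgeR adjusted p = 0.116). Of 15 sarcomere genes used by all striated fibers, 13 fell under strain and 0 without strain, or 3 without strain when No Strain replicate 3 was left out. Ttn, which encodes the giant protein titin, fell by 1.53 under strain (SE 0.321, edgeR adjusted p = 0.0151). Of 18 genes of regenerating or developing muscle tested, 2 fell under strain (Myf5, a myogenic factor of muscle stem cells, and Chrna1, an acetylcholine receptor subunit) and 0 rose. Myf5 had 2 to 5 counts under strain, near the floor of 3, and 10 to 19 counts in TD, so its change is coarse. Without strain 0 of 18 passed in either direction (1 fell without No Strain replicate 3), and the median log2 fold change of that list was 0.23.

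Myog, the factor that drives myoblast differentiation, had 13.9, 13.5, 16.7, 17.9 and 8.06 CPM in TD, 3.67, 4.14, 20.5 and 9.53 CPM under strain, and 10.7, 24.5 and 21.2 CPM without strain. Its Strain libraries covered the TD range, and its log2 fold change was -0.56 (edgeR adjusted p = 0.464). Mymk, needed for myoblast fusion, and Chrng, the fetal acetylcholine receptor subunit, had -0.70 and -0.66 (edgeR adjusted p = 0.255 and 0.410). Strain replicate 3, high in Myl4, Tnni1, Tnnc1 and Tnnt1 among the Strain libraries, was also highest there in Myog, Mymk at 10.5 CPM and Chrng at 6.81 CPM. Of 15 regulators of fiber type, 6 fell under strain and 3 without strain. Among these were Sox6, a repressor of slow genes, by 0.89 and 0.65, and Tead1, a factor that binds MCAT elements, by 0.45 and 0.31. With No Strain replicate 3 left out, 0 of the 15 passed without strain.

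Other tissue lists also moved with the patches. Of 7 adipocyte genes, 5 fell under strain and 6 without strain, and their summed level was 2277 to 4177 CPM in TD, 1498 to 2292 CPM under strain and 1372 to 1861 CPM without strain. Of 6 neutrophil genes, 6 rose under strain and 4 without strain, from 445 to 1658 CPM in TD to 869 to 8689 CPM and 2034 to 5163 CPM. Of 8 smooth muscle genes, 3 fell under each patch, and the summed levels overlapped. That sum includes Des, which is also in the sarcomere and regeneration lists and was not called. Its means were 609 CPM in TD, 421 CPM under strain and 703 CPM without strain. Endothelial genes rose in 2 of 4 under each patch, and 0 of 4 Schwann cell genes fell under strain and 2 without, or 0 when No Strain replicate 3 was left out. Without that library the counts for No Strain against TD were 4 of 7 adipocyte, 2 of 8 smooth muscle and 1 of 6 keratinocyte genes, the last higher. Macrophage, keratinocyte and fibroblast genes had 0 calls in either comparison with all libraries. No marker of these lists was at 0 in all libraries. The part of these tissue differences in the levels of the 10 genes was not tested.

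Likeness between genes was described by Pearson's r of log2 CPM over 12 libraries after group means were subtracted. The points share libraries that differed in muscle RNA, whose part in these values was not tested. The value of r was above 0 for every pair in the list. Myh3 was closest within the list to Tnnt1 (r = 0.953, and 0.953 without No Strain replicate 3), Casq2 (0.929 and 0.913) and Tnni1 (0.912 and 0.904). Myh7 was closest to Myl2 (0.951 and 0.912) and Myl3 (0.927 and 0.881). Tnni1 and Myh7, both genes of slow fibers, had 0.735, and 0.565 without that library. Outside the trio, the highest value of Myh7 was 0.795 with Tnnt1, or 0.706 with Myh8 without that library. Myl2 and Myl3 were less set apart from the other genes by this measure. Myl2 had 0.876 with Casq2 (0.868 without that library) and 0.853 with Tnnt1, near its 0.899 with Myl3 (0.832). Myl3 had 0.837 with Tnnt1. Myl4 had the lowest values, 0.334 with Myh7 and 0.241 with Myl3.

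Outside the list, among 15669 genes with a mean of at least 1 CPM, the 5 most like Myh3 were Actn2 (r = 0.952), Tpm1 (0.951), Vgll2 (0.950), Mybpc1 (0.946) and Cystm1 (0.942). Actn2 encodes sarcomeric actinin, Tpm1 a tropomyosin and Mybpc1 slow myosin-binding protein C. Those most like Myh7 were Zfp446 (0.915), Prdx3 (0.907), Myh6 (0.889), Fhl1 (0.858) and C330018D20Rik (0.854). Without No Strain replicate 3 these were 0.871, 0.849, 0.785, 0.718 and 0.776 in that order. For Myh8 the 5 most alike were Tsen54 (0.851), C330018D20Rik (0.849), Amd1 (0.841), Mettl21c (0.835) and 2500004C02Rik (0.825). With that library left out, the values ran from 0.93 to 0.941 for Myh3 and from 0.786 to 0.845 for Myh8. All these genes were picked as the highest of 15669 over only 12 libraries, and their values carry no test.

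Some counts could be shared with near copies. Of the 50-base windows of the Myh8 transcript, 21.4% also occur in other genes, 11.8% in Myh2, while for Myh3 it was 4.81%. For Tnnc1, Tnnt1, Myl3, Myl2, Myl4 and Casq2 it was 0%, and for Tnni1 0.665%. Exons of Myh7, Myl3, Myl2 and Myl4 overlap genes on the opposite strand, and the counting is not known to use strand. Pth1r, opposite Myl3, had 573 counts in No Strain replicate 3 and 490 to 892 in the others, and Ccdc63, opposite Myl2, had 5 to 29 counts, with 11 in that library. Mhrt, opposite Myh7, had 6 counts in No Strain replicate 3 and 0 elsewhere, so it was detected where Myh7 was highest.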

How the data were processed

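RNA was sequenced from 12 wound libraries prepared by oligo(dT) enrichment, per the labels' protocols. The deposited values are raw counts per Ensembl gene, 1 file for each library, per the file headers. The submitters' processing notes name bcl2fastq 2.17, FastQC, cutadapt, STAR, featureCounts and DESeq2 and the build GRCm38. The annotation release, the strand setting and the treatment of reads with several matches are not given in the sources used here. Of 54232 gene identifiers, 54165 matched GENCODE M21, which supplied symbols, exon lengths and positions.

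Genes were kept by filterByExpr (minimum count 10, minimum total count 15), leaving 18618. All 12 libraries entered 1 edgeR 4.0.16 quasi-likelihood fit with TMM scaling and robust spread (R 4.3.3). Adjustment was by Benjamini-Hochberg over all genes tested. CPM used TMM-scaled totals, and log2 CPM added a prior count of 2. Ratios of single pairs added 0.1 CPM. The fit was tested on simulated data. The 10 genes and all lists were chosen with earlier results of these data known. Named genes were the 10, fixed fast, regeneration and heart genes, up to 2 genes each way from every other list in each comparison with TD, and the 5 genes most like Myh8, Myh3 and Myh7. Alternatives were DESeq2 1.42.0, its size factors, library totals, limma-voom (limma 3.58.1), other filters, other samples in the fit, no robust weights, and the fast list or title letter as a covariate. Each library was also left out in turn. Over 19 pairs within groups no library duplicated another (chi-square per degree of freedom of at least 8.69). Floors cover counting error only.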

Additional observations from a re-analysis of the deposited data

Results flagged for a closer look

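In a screen of 22 group values (10 genes and their ratio to the fast list, in the TD and the Strain libraries), 4 stood far from the rest of their group, where chance gives about 1.1. All 4 were low values in TD replicate 5. The genes vary together over the same libraries, so these are not 4 separate events and are not an excess over 1.1. There log2 CPM was 3.82 for Tnni1 (4.68 in the next library), -2.52 for Myl2 (1.04), 5.15 for Myl4 (5.57) and 4.27 for Casq2 (4.86). That library also held the lowest sum of mature fast muscle genes in TD, 6978 CPM. The part of muscle content in these values was not tested. Groups of 3 were not screened, so No Strain replicate 3 was not.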

How the results depend on the processing

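Of 654 values of single genes under an alternative, 18 changed sign, none of them called under either setting, and 33 newly passed the threshold. Myh8 for Strain against TD passed in all settings except the fast list as a covariate (-0.63, edgeR adjusted p = 0.495). With that covariate the other 9 genes turned positive for Strain against TD, without passing: Myh3 1.58, Myh7 3.49, Tnni1 0.33, Tnnc1 0.88, Tnnt1 1.30, Myl3 1.33, Myl2 4.50, Myl4 0.052 and Casq2 0.37. For No Strain against TD, Myh8 was -0.035 with library totals alone and -0.042 with limma-voom, and Myl2 was -0.14 with limma-voom. As each library was left out, Myh8 ran from -0.16 to 0.24, Myh7 from -0.28 to 3.99, Myl3 from -0.52 to 2.73 and Myl2 from -0.50 to 3.19. Genes of the list called lower for Strain against TD numbered 5 with DESeq2, 3 with only the groups compared, 0 with the fast covariate and 1 to 4 as each library was left out, against 1. Those called higher for No Strain against TD numbered 2, 1, 8 and 0 to 5 in the same order, against 0. The 5 arose without No Strain replicate 2 (Myh3, Myh7, Tnnc1, Myl3 and Myl2), where 1305 of 19051 genes were called higher. Among all genes, those called lower for Strain against TD numbered 1805, 1127, 1 and 515 to 1455 in that order, against 1194. Genes called higher for No Strain against TD numbered 2261, 1822, 563 and 788 to 1820, against 1741. The median of the list for Strain against No Strain was -1.06 with the fast covariate and -2.56 to -1.42 as each library was left out, against -2.13. The median of pairwise ratios in place of the ratio of sums gave 2.24 for No Strain against TD and -1.69 for Strain against No Strain, against 1.51 and -1.05. The difference of that ratio between Strain and TD, 0.47, ran from 0.39 to 0.59 as each library was left out. Longest transcripts gave 16.1 CPM per kilobase for Myh8, 12.4 for Tnni1, 15.9 for Tnnt1 and 14.9 for Myl4. Over all genes, 2349 passed for Strain against TD, but 1527 without a filter, 1 with the fast covariate, 798 with the title letter and 882 to 2458 as each library was left out. For No Strain against TD 3305 passed, but 1046 with the fast covariate, 2145 with the title letter and 1505 to 3415 as each library was left out. Library totals alone gave 1257 higher and 2046 lower there (38.1% higher, against 52.7%). DESeq2 called 33 genes for Strain against No Strain, against 0. What causes these shifts was not tested. No paired analysis was possible because the sample titles share no number between groups. Counts below 10 limit Myh7 in 3, Myl2 in 2 and Myl3 in 4 of the 4 Strain libraries.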
